A study of Mus musculus with 6 samples.

Results

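The 10 genes described here make or break down the eicosanoids, that is, the prostaglandins and the leukotrienes: Ptgs1, Ptgs2, Ptges, Hpgds, Hpgd, Alox5, Alox5ap, Lta4h, Ltc4s and Alox15. They were taken by gene symbol from a table of 34745 genes, and each symbol matched 1 gene. The study asked what the loss of mTOR changes in monocytic myeloid-derived suppressor cells (M-MDSCs), immature monocyte-like cells that restrain T cells. RNA of M-MDSCs was sequenced in 3 libraries of wild-type (WT) C57BL/6 mice and in 3 libraries of Lyz-mTOR mice, named mTOR-/- here. The Lyz-mTOR mice carry floxed mTOR alleles and Lyz-Cre, a Cre recombinase driven from the lysozyme M locus in cells of the myeloid lineage. The deletion therefore depends on when that promoter becomes active. The WT mice were purchased, and whether the genotypes were littermates is not given in the sources used here. All cells came from bone marrow that was cultured with GM-CSF and IL-6, and CD11b+Ly6G-Ly6C high cells were sorted from both genotypes, while the labels call the cells fresh. The design text gives n = 3 for the mice, and no source used here ties each library to a separate mouse or culture, so the p-values measure only the spread between these libraries, which may be technical.

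Eicosanoids are short-lived lipids made from arachidonic acid, which phospholipases free from membranes. The cyclooxygenases, encoded by Ptgs1 and Ptgs2, turn it into prostaglandin H, and terminal synthases then make each prostaglandin. Prostaglandin E, made by the Ptges product among others, is known as a suppressor of T cells and as a mediator of suppression by myeloid cells. The 5-lipoxygenase product of Alox5, helped by the membrane protein that Alox5ap encodes, turns arachidonic acid into leukotriene A, an unstable intermediate at a fork. The hydrolase encoded by Lta4h makes leukotriene B from it, a strong attractant of neutrophils, and the synthase encoded by Ltc4s couples it to glutathione to give the cysteinyl leukotrienes. Alox15 encodes a lipoxygenase that acts at other carbons of the fatty acid, and Hpgd encodes the dehydrogenase that inactivates prostaglandins.

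The libraries held between 12317507 and 14768126 counted reads, and the 3 mTOR-/- libraries were all shallower than the 3 WT libraries. A count of 3 reads, taken as the floor of detection, was 0.203 to 0.244 CPM (counts scaled to library size) depending on the library, and such floors cover counting error only. mTOR-/- replicate 3 was the least like its own group, with correlations of log2 CPM across genes of 0.955 and 0.952 against 0.973 between the other two. Mtor itself was counted 883, 983 and 908 times in mTOR-/- replicates 1 to 3 and 980, 875 and 929 times in the WT replicates, a log2 fold change of 0.15. Whole-gene counts of Mtor thus did not separate the groups, and mTOR-/- means the libraries labelled so. The paper reports that the loss of mTOR in MDSCs was verified separately. Counts per exon would be needed to check the deletion in these libraries. The 6 genes that stand for the sort were all tested, with a summed level of 1771 to 1948 CPM in mTOR-/- and 1726 to 1927 CPM in WT libraries. Of these, Ly6c2 fell (87.2 CPM in mTOR-/- and 174 CPM in WT libraries), while Cd14 (216 and 112 CPM) and Csf1r (391 and 277 CPM) rose. At an adjusted p under 0.05 and any fold, 1.87% of all tested genes were lower and 2.18% higher. Itgam, in both of its gene entries, Ly6c1 (16.9 and 13.9 CPM) and Ccr2 did not pass the test. Ly6g, which the sort excludes, had 13.3 CPM in mTOR-/- and 2.76 CPM in WT libraries.

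Of the 10 genes, Lta4h was the most reduced in the mTOR-/- M-MDSCs, 2.27-fold lower than in WT, and it was the only one that passed the thresholds of the study for a differentially expressed gene (DEG), an adjusted p under 0.05 and a fold of at least 2. Ptgs1 and Ptgs2, the cyclooxygenase genes, rose by smaller folds, and Alox15 fell by a smaller fold, each with an adjusted p under 0.05. Ptges, Hpgds, Alox5, Alox5ap and Ltc4s did not pass the test, and Hpgd had no read in any library. Adjusted p-values are those of edgeR's quasi-likelihood test, adjusted by the Benjamini-Hochberg method over the 12537 genes tested, and are called edgeR adjusted p below.

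Counted by the DEG thresholds, 1 of the 9 tested eicosanoid genes was lower and 0 were higher, beside 1.69% of all tested genes in either direction (0.654% lower and 1.04% higher). With an adjusted p under 0.05 at any fold, 2 were higher and 2 lower, beside 4.04% of all tested genes in either direction (2.18% higher and 1.87% lower). The 3 libraries of one genotype lay wholly apart from the 3 of the other for 6 of the 9 genes, 4 higher and 2 lower in mTOR-/-, beside 28.4% of all tested genes (14.5% higher and 13.9% lower). Of the log2 fold changes, 5 were positive and 4 negative, with a median of 0.18, beside a median of 0.0049 over all tested genes. The lowest count of a tested eicosanoid gene in any library was 82, so none passed the filter on low counts through one genotype alone.

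**Figure D1:**
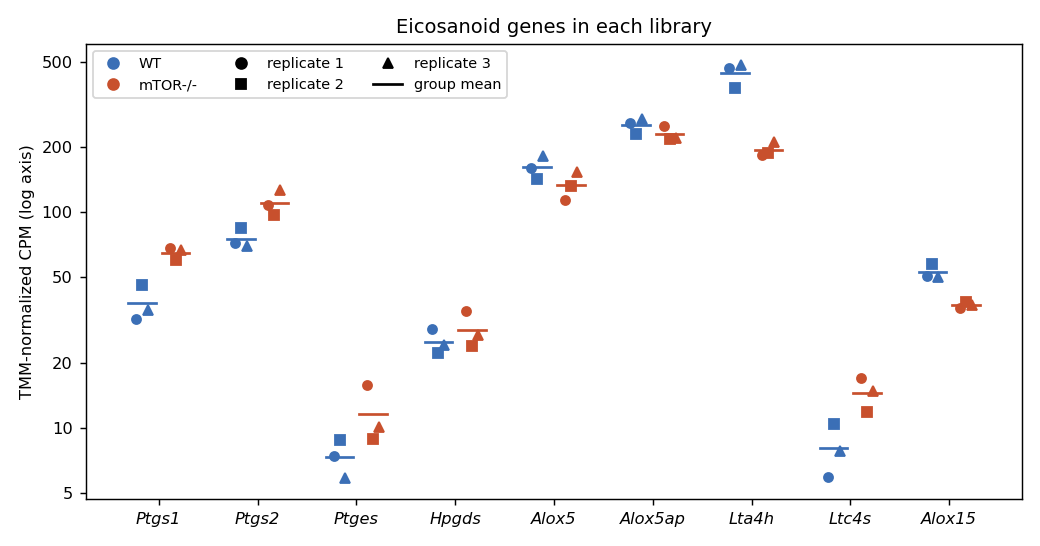
TMM-normalized CPM (vertical log axis) of the 9 detected eicosanoid genes (horizontal axis) in each library; blue is WT, red is mTOR-/-, the symbol gives the replicate and the line the group mean of 3 libraries. Lta4h lies between 377 and 484 CPM in WT and between 185 and 212 CPM in mTOR-/- libraries, and Ptgs1 and Ptgs2 lie apart the other way.

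The start regions of the genes that moved in the leukotriene and cyclooxygenase arms are shown because these genes did not move the same way. RefSeq start regions (GRCm38.p6) were matched for 8 of the 10 genes, not for Alox5ap or Alox15, and each window runs from 250 bases before the transcription start to 30 bases after it, on the coding strand. Capitals mark the letters of 6 motifs, searched on both strands: TATAAA (the TATA box), GGGCGG (the GC box), TGACG (the core of the cyclic AMP response element), CACGTG (an E-box), TTGCGCAA (a C/EBP palindrome) and CCAAT.
Lta4h, chr10:93453146-93453425: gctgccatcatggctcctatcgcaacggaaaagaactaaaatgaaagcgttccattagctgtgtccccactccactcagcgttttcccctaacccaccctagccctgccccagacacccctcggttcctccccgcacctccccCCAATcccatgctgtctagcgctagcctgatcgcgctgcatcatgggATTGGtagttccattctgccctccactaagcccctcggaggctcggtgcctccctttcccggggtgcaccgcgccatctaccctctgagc
Ptgs2, chr1:150099781-150100060: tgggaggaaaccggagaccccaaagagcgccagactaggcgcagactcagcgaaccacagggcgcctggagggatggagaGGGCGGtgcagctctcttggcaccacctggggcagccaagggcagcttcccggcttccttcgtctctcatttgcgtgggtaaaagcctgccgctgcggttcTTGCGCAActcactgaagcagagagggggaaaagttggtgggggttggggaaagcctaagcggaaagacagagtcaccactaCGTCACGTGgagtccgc
Ptgs1, chr2:36230176-36230455: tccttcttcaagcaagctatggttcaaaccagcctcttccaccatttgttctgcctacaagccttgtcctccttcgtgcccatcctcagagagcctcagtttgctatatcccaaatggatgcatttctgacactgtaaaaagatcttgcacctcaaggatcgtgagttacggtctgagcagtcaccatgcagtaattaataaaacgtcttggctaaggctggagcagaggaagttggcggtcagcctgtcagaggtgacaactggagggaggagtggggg
The Lta4h window held CCAAT at -107 to -103 and, on the reverse strand, at -60 to -56, counted from the start, and 36.1% of the 32851 windows of the same length held it. The Ptgs2 window held GGGCGG at -170 to -165 (34.7% of windows), TTGCGCAA at -69 to -62 (0.18%), and just after the start TGACG on the reverse strand (19.9%) and CACGTG (6.79%), which share 2 bases. The Ptgs1 window held none of the 6, TATAAA included (13.1%). GC content was 60.0% for Lta4h, 61.4% for Ptgs2 and 49.6% for Ptgs1. A match is a description of the letters only.

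Lta4h (ENSMUSG00000015889, chr10:93453396-93484896, plus strand) encodes leukotriene A hydrolase, a zinc enzyme that also trims peptides. It had 185, 189 and 212 CPM in mTOR-/- replicates 1 to 3 and 468, 377 and 484 CPM in WT replicates 1 to 3. These levels rested on 2274 to 2769 counts in mTOR-/- and 5520 to 6801 counts in WT libraries. The groups did not overlap, and the highest mTOR-/- library stood well below the lowest WT library, WT replicate 2. Mean levels were 195 ± 14.3 CPM (SD, n = 3) in mTOR-/- and 443 ± 57.8 CPM (SD, n = 3) in WT M-MDSCs, a 2.27-fold lower level. The log2 fold change was -1.18 (SE 0.12, 95% interval -1.44 to -0.92, edgeR adjusted p = 0.00108), and Lta4h ranked 27 of 12537 genes by p-value. Lta4h was called with each library left out in turn, with log2 fold changes between -1.29 and -1.11. Without mTOR-/- replicate 3, the library least like its group, it was -1.25. In bulk RNA, fewer cells of a type that expresses a gene and less of its RNA per cell cannot be told apart. Nor can the loss of mTOR and a difference between the mouse lines, as given with the neighbouring genes at the end.

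Markers of basophils and mast cells, cells that also make leukotrienes, were mostly lower in the same libraries. Of the 13 genes of that list, 10 were tested. By the DEG thresholds 4 were lower (Cpa3, Mcpt8, Kit and Hdc) and 0 higher, beside 0.654% lower and 1.04% higher of all tested genes. The list median of the log2 fold change was -0.92, with 9 negative and 1 positive (Fcer1a, 0.45). At an adjusted p under 0.05 and any fold 6 were lower, Gata2 and Cd200r3 among them, beside 1.87% of all tested genes. Fcer1a, Ms4a2, Prss34 and Tpsb2 did not pass the test. Cpa3, the mast cell carboxypeptidase, had 134 CPM in mTOR-/- and 693 CPM in WT libraries, a log2 fold change of -2.37 (edgeR adjusted p = 9.5e-05). The summed level of the list was 668 to 742 CPM in mTOR-/- and 1710 to 1819 CPM in WT libraries, while Cma1, Tpsab1 and Mcpt4, proteases of mature mast cells, were at 0 in all 6 libraries. The eosinophil list summed to 57.7 to 83.9 CPM in mTOR-/- and 116 to 135 CPM in WT libraries, with 1 of 6 tested genes lower (Prg2) and none of its 9 genes at 0 throughout. The neutrophil or G-MDSC list of 12 genes summed to 2421 to 2749 CPM and 2135 to 2478 CPM, with Ly6g higher and Ltf lower by the DEG thresholds. By smaller folds, S100a8 was higher and Ngp lower, each with an adjusted p under 0.05. The part of these cells in the lower level of Lta4h was not tested.

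**Figure D2:**
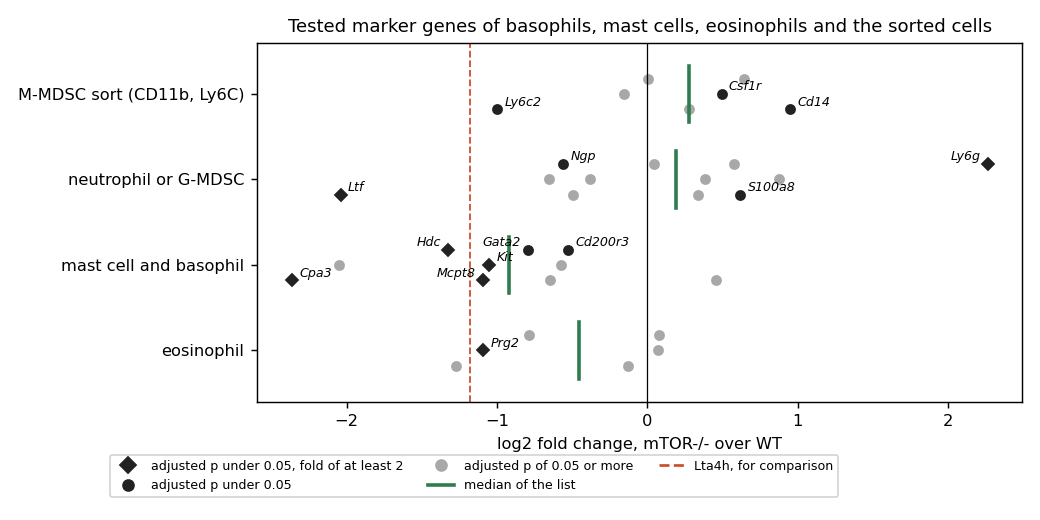
Log2 fold change, mTOR-/- over WT (horizontal axis), of the tested marker genes of 4 cell type lists (rows). The lists were chosen with earlier results of these data known. Each point is a gene, diamonds passed the DEG thresholds, and black circles passed an adjusted p of 0.05 only. Green bars are list medians and the dashed line is Lta4h at -1.18. The mast cell and basophil list has its median at -0.92, on the same side as Lta4h, and the list of sort markers at 0.28.

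The tested genes whose pattern over the 6 libraries was nearest to that of Lta4h, by the mean absolute difference of centred log2 CPM, were Cyp11a1 (0.0988), Hspa1a (0.106) and Hdc (0.109). Cyp11a1 encodes the enzyme that starts steroid synthesis from cholesterol, Hspa1a an inducible heat shock protein, and Hdc histidine decarboxylase, which makes histamine. Their log2 fold changes were -1.15 for Cyp11a1, -1.34 for Hspa1a and -1.33 for Hdc, the last of which is also on the mast cell and basophil list. Fold changes near that of Lta4h follow from this choice of genes and are no separate result.

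Upstream of Lta4h, the genes for making leukotriene A differed less between the groups. Alox5 (ENSMUSG00000025701, chr6:116410077-116461178, minus strand) had 114, 133 and 154 CPM in mTOR-/- and 161, 142 and 182 CPM in WT replicates 1 to 3. The groups overlapped, since mTOR-/- replicate 3 lay above WT replicate 2. The log2 fold change of Alox5 was -0.27 (SE 0.13, 95% interval -0.57 to 0.026, edgeR adjusted p = 0.275). Alox5ap (ENSMUSG00000060063, chr5:149264767-149288153, plus strand), which encodes the 5-lipoxygenase activating protein, had 251, 218 and 221 CPM in mTOR-/- and 259, 231 and 270.5 CPM in WT replicates 1 to 3. Its groups overlapped too, and the log2 fold change was -0.14 (SE 0.10, 95% interval -0.36 to 0.084, edgeR adjusted p = 0.455). The intervals of Alox5 and Alox5ap did not meet that of Lta4h, and the difference between the genes was not tested.

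Ltc4s, the gene on the other side of the leukotriene A fork, had its values on the opposite side to Lta4h. Ltc4s (ENSMUSG00000020377, chr11:50236469-50238616, minus strand) had 17.1, 11.9 and 14.7 CPM in mTOR-/- and 5.89, 10.4 and 7.83 CPM in WT replicates 1 to 3. The groups did not overlap, although mTOR-/- replicate 2 and WT replicate 2 were close. The log2 fold change was 0.85 (SE 0.25, 95% interval 0.29 to 1.42) and did not pass the test (edgeR adjusted p = 0.0956). It rested on 83 to 210 counts a library. In GENCODE M21 the antisense gene Gm26542 lies across Ltc4s, with 3, 22 and 4 counts in mTOR-/- and 0, 5 and 2 in WT libraries, and without strand reads of both genes cannot be told apart.

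The ratio of Lta4h to Ltc4s was then set out per library on the FPKM scale, a choice made after the values of both genes were seen, so it is given with no test. It was 6.28, 9.23 and 8.32 in mTOR-/- and 46.0, 20.9 and 35.9 in WT replicates 1 to 3, or 7.94 ± 1.51 and 34.3 ± 12.6 (SD, n = 3 each). All mTOR-/- libraries lay under all WT libraries, and the WT spread was wide, with WT replicate 2 the lowest. The ratio of Lta4h to Alox5, chosen in the same way, was 5.28 ± 0.462 in mTOR-/- and 9.82 ± 0.516 in WT (SD, n = 3 each). The ratio of Alox5ap to Alox5, genes whose proteins work together, was 5.84 ± 1.30 and 5.23 ± 0.245 (SD, n = 3 each), a difference smaller than the spread between libraries. The size of such ratios depends on the gene lengths, although the comparison between genotypes does not. With the merged exons of GENCODE M21, the ratio of Lta4h to Ltc4s was 2.28 ± 0.432 in mTOR-/- and 9.82 ± 3.62 in WT, and that of Lta4h to Alox5 was 0.990 ± 0.0867 and 1.84 ± 0.0969 (SD, n = 3 each).

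Summed over Alox5, Alox5ap, Lta4h and Ltc4s, the 5-lipoxygenase arm held 568, 552 and 601 CPM in mTOR-/- and 893, 760 and 944 CPM in WT libraries. Most of this difference was Lta4h. Without it the sum was 382, 363 and 390 CPM in mTOR-/- and 425, 384 and 460 CPM in WT replicates 1 to 3, and the groups overlapped.

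**Figure D3:**
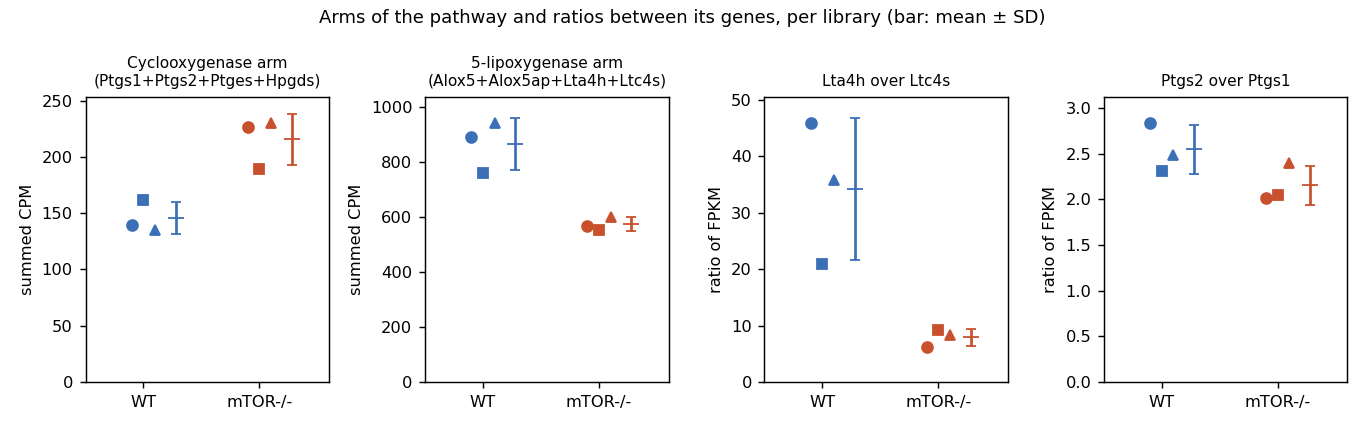
Summed CPM of the cyclooxygenase and 5-lipoxygenase arms and 2 ratios of FPKM between genes (vertical axes, from 0) in each WT (blue) and mTOR-/- (red) library, with symbols for replicates 1 (circle), 2 (square) and 3 (triangle); bars are mean ± SD of 3 libraries. The groups lie apart in both arms, in opposite directions, and for Lta4h over Ltc4s, while Ptgs2 over Ptgs1 overlaps; without Lta4h the 5-lipoxygenase sums overlap too.

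Both cyclooxygenase genes were higher in mTOR-/- M-MDSCs. Ptgs1 (ENSMUSG00000047250, chr2:36230426-36252272, plus strand), the cyclooxygenase that most tissues express steadily, had 67.9, 59.8 and 66.8 CPM in mTOR-/- and 31.9, 46.1 and 35.3 CPM in WT replicates 1 to 3. The groups did not overlap, and WT replicate 2 was the WT library nearest to the mTOR-/- libraries. Mean levels were 64.8 ± 4.37 CPM and 37.8 ± 7.44 CPM (SD, n = 3 each), and the log2 fold change was 0.78 (SE 0.15, 95% interval 0.44 to 1.12, edgeR adjusted p = 0.0244). Its call at an adjusted p of 0.05 was lost without mTOR-/- replicate 1 (edgeR adjusted p = 0.0806), WT replicate 1 (0.103) or WT replicate 3 (0.124), with log2 fold changes from 0.66 to 0.95 over the 6 libraries left out. The direction therefore held in each of these fits, and the call in 3 of 6.

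Ptgs2 (ENSMUSG00000032487, chr1:150100031-150108227, plus strand), the cyclooxygenase induced by inflammatory signals, had 108, 96.9 and 127 CPM in mTOR-/- and 71.7, 84.6 and 69.5 CPM in WT replicates 1 to 3. The groups did not overlap, mTOR-/- replicate 3 was the highest library and WT replicate 2 again the highest of its group. Mean levels were 111 ± 15.2 CPM and 75.3 ± 8.12 CPM (SD, n = 3 each), and the log2 fold change was 0.56 (SE 0.13, 95% interval 0.27 to 0.85, edgeR adjusted p = 0.0464). The call was close to the threshold. It held only without mTOR-/- replicate 2 and was lost when any of the other 5 libraries was left out, with edgeR adjusted p from 0.0729 to 0.200 in those 5 fits and a log2 fold change of 0.44 without mTOR-/- replicate 3. The FPKM ratio of Ptgs2 to Ptgs1 was 2.02, 2.05 and 2.40 in mTOR-/- and 2.84, 2.32 and 2.49 in WT replicates 1 to 3, and the groups overlapped.

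Markers of other cells that are known to express cyclooxygenases were set beside these genes. The dendritic cell list of 8 genes, 5 of them tested, summed to 195 to 266 CPM in mTOR-/- and 69.4 to 154 CPM in WT libraries, with Siglech at 0 throughout. Most of the sum was Itgax (172 and 90.7 CPM), which did not pass the test (edgeR adjusted p = 0.0987). Ccr7 alone was higher by the DEG thresholds, beside 1.04% of all tested genes, and Flt3 had a negative log2 fold change. The megakaryocyte and platelet list of 7 genes, 5 of them tested, summed to 529 to 708 CPM in mTOR-/- and 569 to 838 CPM in WT libraries. No gene of it was at 0 throughout. Itgb3 was lower by the DEG thresholds, beside 0.654% of all tested genes. Itga2b was lower by a smaller fold (log2 fold change -0.79, edgeR adjusted p = 0.0314). The macrophage list of 13 genes, 7 of them tested, summed to 768 to 935 CPM and 949 to 1062 CPM, with Marco and Timd4 at 0. Its called gene, Clec4f, had 86, 75 and 179 counts in mTOR-/- and 0 in each WT library. It thus passed the filter on low counts through mTOR-/- alone. The groups lay apart for 3 higher genes, Clec4f among them, and 2 lower (Adgre1 and Cd68), beside 28.4% of all tested genes. Lymphoid markers summed to at most 4.28 CPM and erythroid markers to at most 10.7 CPM in any library. The part of these cells in the higher levels of Ptgs1 and Ptgs2 was not tested.

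The terminal synthases of this arm did not pass the test. Ptges (ENSMUSG00000050737, chr2:30889471-30929863, minus strand), the inducible prostaglandin E synthase that works with the Ptgs2 product, had 15.9, 8.87 and 10.1 CPM in mTOR-/- and 7.39, 8.74 and 5.84 CPM in WT replicates 1 to 3. The groups were separated only by the small gap between mTOR-/- replicate 2 and WT replicate 2, and mTOR-/- replicate 1 stood above all others. The log2 fold change was 0.66 (SE 0.28, 95% interval 0.042 to 1.29, edgeR adjusted p = 0.211). Hpgds (ENSMUSG00000029919, chr6:65117293-65144908, minus strand), the hematopoietic prostaglandin D synthase known from mast cells, had 34.7, 24.1 and 26.8 CPM in mTOR-/- and 28.7, 22.3 and 24.3 CPM in WT replicates 1 to 3. The groups overlapped (log2 fold change 0.18, SE 0.18, 95% interval -0.21 to 0.58, edgeR adjusted p = 0.589). Summed over Ptgs1, Ptgs2, Ptges and Hpgds, the cyclooxygenase arm held 227, 190 and 231 CPM in mTOR-/- and 140, 162 and 135 CPM in WT libraries.

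Hpgd (ENSMUSG00000031613, chr8:56294552-56321046, plus strand), the prostaglandin dehydrogenase, had 0 counts in all 6 libraries and was not tested. At these depths a count of 0 allows up to 0.244 CPM in the shallowest library. It shared this with 17436 of the 34745 genes in the table.

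Alox15 (ENSMUSG00000018924, chr11:70344152-70352031, minus strand), known from macrophages and eosinophils, had the tightest values of the 9 genes in the mTOR-/- libraries. It had 36.1, 38.5 and 37.1 CPM in mTOR-/- and 50.7, 57.5 and 50.2 CPM in WT replicates 1 to 3. The groups did not overlap, and here WT replicate 2 lay farthest from the mTOR-/- libraries. The log2 fold change was -0.50 (SE 0.12, 95% interval -0.77 to -0.24, edgeR adjusted p = 0.0448), a 1.42-fold lower level. The call was lost with any 1 of the 6 libraries left out, with edgeR adjusted p from 0.0605 to 0.160 and log2 fold changes from -0.54 to -0.44. The summed eosinophil markers and the summed mast cell and basophil markers given beside Lta4h were also lower in mTOR-/- libraries. Likeness to Alox15 library by library was not tested, nor was the part of these cells in its lower level.

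**Figure D4:**
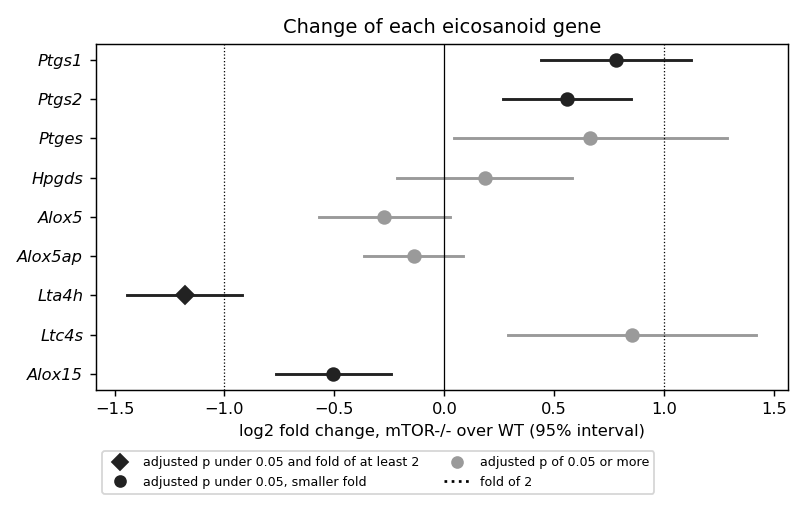
Log2 fold change, mTOR-/- over WT (horizontal axis), with its 95% interval for each of the 9 tested eicosanoid genes; the diamond passed the DEG thresholds, black circles passed an adjusted p of 0.05 only, grey did not, and dotted lines mark a fold of 2. Lta4h at -1.18 lies beyond the dotted line, with Ptgs1 at 0.78, Ptgs2 at 0.56 and Alox15 at -0.50 inside.

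Levels between genes were compared per length, on the deposited FPKM scale. In WT M-MDSCs Lta4h was highest at 213 ± 27.7 FPKM, above Alox5ap at 113 ± 8.88 FPKM (SD, n = 3 each), and their libraries lay apart. Alox5 (21.7 ± 2.58 FPKM) and Alox15 (20.4 ± 1.58 FPKM) followed and overlapped, then Ptgs2 (15.9 ± 1.72 FPKM), then Ltc4s (6.67 ± 1.87 FPKM) and Ptgs1 (6.32 ± 1.23 FPKM), which overlapped. Hpgds (3.24 ± 0.441 FPKM) and Ptges (1.38 ± 0.278 FPKM) were lowest, each apart from its neighbour. Among the 10 genes, Alox5, Alox5ap and Lta4h thus stood above the 4 genes of the cyclooxygenase arm in WT cells.

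In mTOR-/- M-MDSCs the order was partly different. Alox5ap (104 ± 7.31 FPKM) and Lta4h (95.2 ± 7.67 FPKM) overlapped at the top, and Ptgs2 (23.8 ± 3.36 FPKM) overlapped with Alox5 (18.2 ± 2.85 FPKM). Alox15 (14.6 ± 0.563 FPKM), Ltc4s (12.2 ± 2.12 FPKM) and Ptgs1 (11.0 ± 0.710 FPKM) formed the next step, in which each overlapped with its neighbour. Hpgds (3.73 ± 0.690 FPKM) and Ptges (2.22 ± 0.696 FPKM) remained lowest. The place of Lta4h depended on the gene length: the FPKM rested on 2066 bases, and the merged exons of GENCODE M21 cover 6102 bases. With the latter, chosen after the values were seen, Alox5ap led in both genotypes and Lta4h had 72.6 CPM per kilobase in WT and 32.0 in mTOR-/- M-MDSCs. The order of Alox5 and Ptgs2 in mTOR-/- depended on the length as well. The Alox5 FPKM rested on 7407 bases, and its merged exons cover 4106 bases. With these, Alox5 (27.9 to 37.5 CPM per kilobase) lay above Ptgs2 (21.2 to 27.7) in mTOR-/- libraries, as in WT. On the same lengths Alox5 overlapped with Lta4h (30.3 to 34.7) in mTOR-/- libraries. The mean of Ptgs1 (16.7) was then above those of Alox15 (15.2) and Ltc4s (14.4) in mTOR-/-, with overlap. In WT it was above that of Ltc4s (9.73 and 7.94).

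Beyond the 10 genes, 71 other genes of the pathway were listed by role, 47 of them were tested and 9 had no read in any library. By the DEG thresholds 2 of 47 were higher (Dpep3 and Fpr2) and 0 lower, beside the 1.69% of all tested genes. With an adjusted p under 0.05 at any fold 4 were higher and 2 lower, beside 4.04%. The groups lay apart for 16 of 47, 7 higher and 9 lower, beside 28.4%. Of the log2 fold changes 15 were positive and 32 negative, with a median of -0.16.

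Among the lipoxygenase and leukotriene enzymes, 7 of 13 were tested and 2 rose, both membrane dipeptidases of a neighbouring pair on chromosome 8. Dpep2 encodes an enzyme that cleaves leukotriene D to leukotriene E, a step after Ltc4s, and had 428, 405 and 488 CPM in mTOR-/- and 260, 290 and 250 CPM in WT replicates 1 to 3. The groups lay far apart (log2 fold change 0.72, SE 0.10, edgeR adjusted p = 0.00642). Dpep3 had 37.0, 32.5 and 35.5 CPM in mTOR-/- and 16.0, 18.8 and 12.3 CPM in WT replicates 1 to 3 (log2 fold change 1.16, SE 0.18, edgeR adjusted p = 0.00823). Dpep1, the kidney form, had no read. The other 5 tested genes of the list did not pass the test, and its median was -0.0036.

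Of the transport and breakdown genes, 10 of 12 were tested. Abcc1, the transporter known to export leukotriene C from cells, fell, with 324 ± 9.64 CPM in mTOR-/- and 437 ± 15.9 CPM in WT (SD, n = 3 each), a log2 fold change of -0.43 (SE 0.083, edgeR adjusted p = 0.0241). Its call was lost in 4 of the 6 fits that left out a library, those without any 1 of the WT libraries or without mTOR-/- replicate 1 (edgeR adjusted p from 0.0697 to 0.143). Cyp4f16, a cytochrome of a family that oxidizes leukotriene B, rose and was named after its values were seen (log2 fold change 0.78, SE 0.18, edgeR adjusted p = 0.0491). Its call held only without mTOR-/- replicate 1 and was lost without any of the other 5 libraries (edgeR adjusted p from 0.0819 to 0.173), and with RLE normalization it was at the threshold (edgeR adjusted p = 0.0503). The median of the list was -0.17.

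Of the receptors, 8 of 16 were tested, and Ptgfr, Oxgr1, Gpr17, Ptgdr and Ptgdr2 had no read in any library. Ptgir, the prostacyclin receptor, was the most abundant and fell, with 164, 166 and 175 CPM in mTOR-/- and 292, 266 and 280 CPM in WT replicates 1 to 3. The groups lay far apart (log2 fold change -0.73, SE 0.085, edgeR adjusted p = 0.00246). Fpr2, a formyl peptide receptor that also binds lipoxin A, rose from 6.53, 10.8 and 11.4 CPM in WT to 36.6, 22.8 and 33.5 CPM in mTOR-/- replicates 1 to 3 (log2 fold change 1.69, SE 0.25, edgeR adjusted p = 0.00761). Ltb4r2 failed the filter on low counts and was not tested (mean 0.652 CPM in mTOR-/- and 0.328 CPM in WT libraries). The tested receptors for both leukotriene classes, named after their values were seen, did not pass the test. Ltb4r1, for leukotriene B, had a log2 fold change of -0.12 (SE 0.12), and of those for cysteinyl leukotrienes Cysltr1 had 0.51 (SE 0.21) and Cysltr2 -0.83 (SE 0.47). The mean levels of Cysltr2 were 1.79 CPM in mTOR-/- and 3.18 CPM in WT libraries, and its groups did not overlap.

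The genes for arachidonate release and re-acylation and the other prostanoid synthases held 0 genes that passed the test, of 14 tested (19 listed) and 8 tested (11 listed), with medians of -0.22 and -0.15. The most abundant were Pla2g7, a phospholipase that breaks down platelet-activating factor, with 700 ± 96.5 CPM in mTOR-/- and 716 ± 49.7 CPM in WT (SD, n = 3 each), and Akr1c18, an aldo-keto reductase, with a log2 fold change of -0.16. Pla2g4a, the cytosolic phospholipase that frees arachidonic acid, and Tbxas1, the thromboxane synthase, came near the threshold and were named after their values were seen. Pla2g4a had 139 ± 15.4 CPM in mTOR-/- and 181 ± 6.77 CPM in WT (SD, n = 3 each, log2 fold change -0.38, edgeR adjusted p = 0.0729). Tbxas1 had 110 ± 8.12 CPM and 81.9 ± 5.42 CPM (SD, n = 3 each, log2 fold change 0.43, edgeR adjusted p = 0.0507). The groups did not overlap for either gene.

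**Figure D5:**
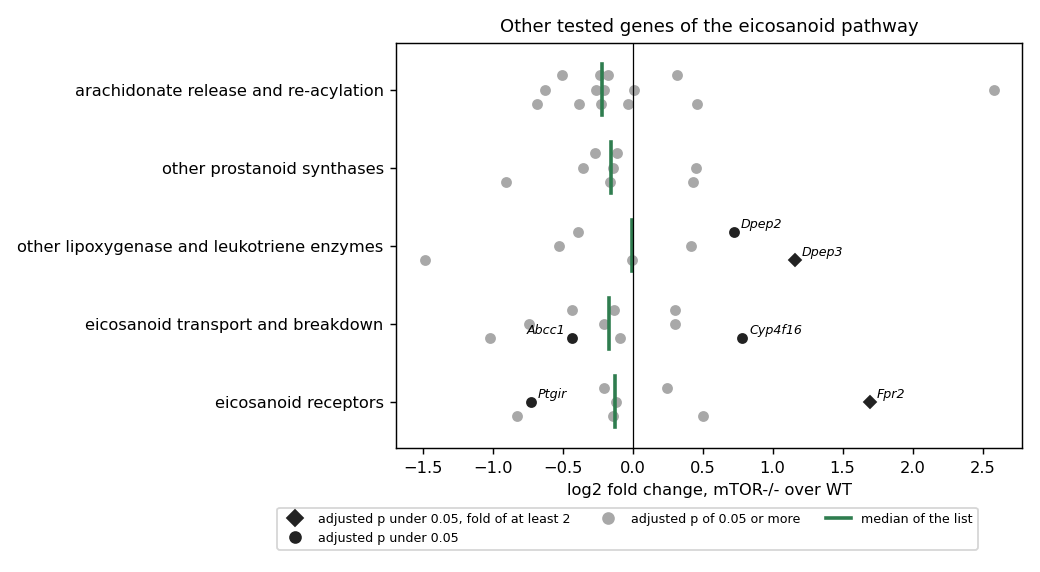
Log2 fold change, mTOR-/- over WT (horizontal axis), of the 47 tested other genes of the eicosanoid pathway in 5 lists (rows); each point is a gene, diamonds passed the DEG thresholds, black circles an adjusted p of 0.05 only, and green bars are list medians. Fpr2 at 1.69 and Dpep3 at 1.16 are the diamonds, and Ptgir at -0.73 and Abcc1 at -0.43 are the named genes on the lower side.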

How the data were processed

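Total RNA of sorted M-MDSCs was prepared with TruSeq kits, and paired-end reads were counted by the authors. The paper names Bowtie2, HTSeq and mm10, while the submitters' processing notes list HISAT2 (2.0.4), StringTie (1.3.0), GRCm38.p4 and mm9 with no role. The annotation release and the use of strand are not given in the sources used here. The deposited counts are whole reads per gene. The deposited FPKM values are those counts per kilobase of 1 length per gene and scaled to the counted reads of the library, as a check on 15680 genes showed to within 0.1%. The deposited data had 36 per-library columns in all, of which 24 were not used. The columns of the authors' own comparison (fold changes and p-values) were not used either.

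Counts were tested with edgeR (4.0.16, R 4.3.3) by its quasi-likelihood F test, mTOR-/- against WT, 3 libraries each, after filterByExpr (minimum count 10, minimum total 15) and TMM normalization, without covariates. Of 34745 genes, 12537 were tested, and p-values were adjusted by the Benjamini-Hochberg method over all of them. Standard errors and 95% intervals came from the same fit, which was tested on simulated data. The biological coefficient of variation was 19%. The CPM values are TMM-normalized, and the likeness of patterns used a prior count of 2. Depth ranged from 12317507 to 14768126 counts.

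Named genes were the 10 members, the pathway genes past both thresholds, the most abundant gene of each pathway list and the 3 genes most like each called member. The members and lists were chosen with earlier results of these data known. Alternatives were DESeq2 (1.42.0), the exact test of edgeR, upper-quartile or RLE factors, other filters, no fold threshold, each library left out, and the replicate number as a block. No 2 libraries agreed within sampling noise (chi-square per degree of freedom of at least 13.0).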

Additional observations from a re-analysis of the deposited data

How the results depend on the processing

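Under each of 13 alternatives 1 eicosanoid gene, Lta4h, passed both thresholds, and a further alternative with no fold change threshold gave 4 genes (2 higher and 2 lower). The other pathway genes that passed numbered 2 (2 higher and 0 lower), and 6 with no fold change threshold (4 higher and 2 lower). All 9 tested members kept the sign of their log2 fold change. At an adjusted p under 0.05 and any fold, Lta4h passed in 13 of 13 alternatives, Ptgs1 in 10, Ptgs2 in 7, Alox15 in 6 and Ltc4s in 2 (DESeq2, adjusted p = 0.0362, and edgeR's exact test, adjusted p = 0.0326). Pla2g7, not called, had a log2 fold change of -0.03, which changed sign without some libraries (from -0.15 to 0.023 over the 6 left out). Over all genes, the count that passed both thresholds was 212, and it was 357 by DESeq2, 386 by edgeR's exact test, 507 with no fold change threshold and 114 to 229 with 1 library left out (lowest without WT replicates 1, 2 or 3, at 128, 114 and 120). With the replicate block the counts were 1 and 2 for the eicosanoid and other pathway genes and 164 over all genes. Same-numbered libraries did not deviate together (correlations of -0.0764, -0.0252 and -0.0608). With 3 libraries per group this cannot exclude that they were prepared in pairs. With the block the edgeR adjusted p was 0.111 for Ptgs2, 0.114 for Alox15, 0.116 for Abcc1 and 0.0716 for Cyp4f16. Genes of few reads limit the precision: Ptges and Ltc4s had the widest intervals of the 9.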

Other observations

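The genes beside Lta4h on chromosome 10 were looked at after its values were seen, within 200 kb, and 3 of the other 8 were tested. Hal (chr10:93488768-93519304), which encodes histidine ammonia lyase, the enzyme that breaks down histidine, starts just after Lta4h ends and had 578, 451 and 547 counts in mTOR-/- and 24, 20 and 31 in WT replicates 1 to 3. The groups lay far apart, in the opposite direction to Lta4h. Mean levels were 41.2 ± 6.16 CPM in mTOR-/- and 1.76 ± 0.423 CPM in WT (SD, n = 3 each), a log2 fold change of 4.55 (SE 0.23, edgeR adjusted p = 3.33e-05), the rank of which was 2 among the 12537 genes by p-value. Snrpf (chr10:93583029-93589706), which encodes a core protein of the spliceosome, fell to 15.9 ± 1.11 CPM in mTOR-/- from 46.0 ± 4.53 CPM in WT (SD, n = 3 each), a log2 fold change of -1.54 (edgeR adjusted p = 0.000717). Elk3, a transcription factor of the ETS family, had a log2 fold change of -0.54 (edgeR adjusted p = 0.0598). Hal, Lta4h and Snrpf thus differed in direction within one stretch of the chromosome, and Hal and Hdc, which both act on histidine, differed in direction too. The WT mice were purchased, and whether the genotypes were littermates is not given. A difference between the mouse lines and the loss of mTOR therefore cannot be told apart for these genes.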
